A study of Rattus norvegicus with 20 samples.

Results

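The response that the right ventricle (RV) and the left ventricle (LV) of the rat heart share after monocrotaline (MCT) was measured by adding, gene by gene, the read counts of the RV and the LV library that carry the same treatment letter and the same code. All 20 libraries of the study entered, and they gave 5 MCT sums and 5 saline sums. Difference between the chambers is no part of this comparison. Each sum is named here by its treatment and the replicate number of its libraries.

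All animals were male rats. Per the labels they received, at a weight of 250 g, either 60 mg/kg MCT or saline solution, and were killed once a discomfort score of at least 7 was reached. The labels give no strain, no age and no time from injection to death, and the same end point is written for saline animals. They also leave unsaid whether the RV and LV library of a code come from the same animal, and whether different codes are different animals. The p-values below therefore reflect only how much these sums vary among themselves.

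Monocrotaline is a plant alkaloid that the liver turns into a reactive product which injures the small vessels of the lung. Resistance in the lung circulation then rises, and the RV, which pumps blood into it, thickens and can fail. The LV pumps into the systemic circulation and does not face that load directly, but it shares a wall, a blood supply and circulating signals with the RV. Adding both chambers keeps what moves in the same direction in both and dilutes what moves in only 1 of them.

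The table holds 30452 Ensembl gene IDs without gene names, and 0 of them could be matched to the reference table used, so genes could not be assigned to pathways or cell types and the labelled tissue could not be checked against its markers. IDs are therefore printed for only 4 genes, and no sequence is shown. In bulk tissue, fewer cells of a type and less RNA per cell cannot be told apart.

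Total counts were 13479274, 11182741, 11893506, 11019663 and 8577228 in MCT sums 1 to 5. They were 13096683, 7397805, 8919014, 11307476 and 10703186 in saline sums 1 to 5. The ranges overlapped, and the means did not differ beyond their spread (exact two-sided permutation test, p = 0.45, Benjamini-Hochberg 0.54 over 6 measures of the sums). The chambers did not contribute equally to every sum. The RV library held 31.5%, 57.0%, 66.2%, 29.7% and 61.6% of the counts in MCT sums 1 to 5, and 46.8% to 58.5% in the saline sums.

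MCT and saline sums separated along the main axis of variation. The first principal component of log2 CPM (counts scaled to a common library size) held 43.8% of the variance. MCT sums 1 to 5 scored 39.4, 45.5, -3.05, 17.2 and 31.1, and saline sums 1 to 5 scored -21.7, -33.2, -28.3, -23.1 and -23.9. The groups did not overlap, and MCT sum 3 was the MCT sum nearest to saline. The means were 26.0 ± 19.4 (SD, n = 5) after MCT and -26.0 ± 4.70 after saline. By exact two-sided permutation this difference had p = 0.0079, the smallest p that 5 against 5 allows, and a Benjamini-Hochberg value of 0.024. On this component MCT sums were more widely spread than saline sums, while on the second component, with 18.7% of the variance, saline sums ran from -47.9 to 20.9 and MCT sums from -12.6 to 13.9. The difference in spread was not tested.

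**Figure D1:**
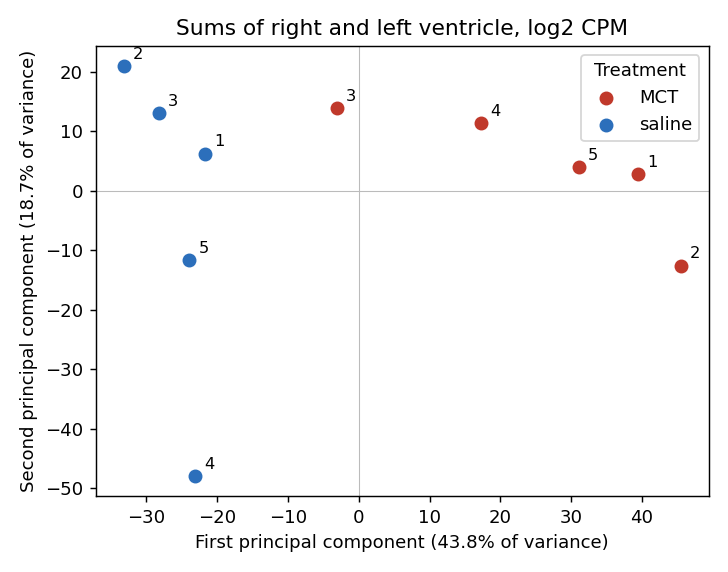
Scores of the 10 sums on the first (horizontal) and second (vertical) principal component of log2 CPM, with MCT in red, saline in blue and the replicate number beside each point. All saline sums lie at or below -21.7 on the first component and all MCT sums at or above -3.05, with MCT sum 3 closest to saline; saline sum 4 is low on the second component at -47.9.

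Adding the chambers gave a large set of genes that differed between treatments. Of 11701 genes tested, 2103 were called, or 18%, at an adjusted p under 0.05 (edgeR quasi-likelihood test, Benjamini-Hochberg over all genes tested). Of these, 1140 genes (9.74% of those tested) were higher after MCT and 963 (8.23%) were lower. Before adjustment, 3651 genes had a p under 0.05.

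The rises were larger than the falls. The median log2 fold change was 0.87 among genes that rose, or 1.83-fold, and -0.62 among genes that fell, or 1.54-fold lower, beside 0.0095 over all genes tested. A rise of over 2-fold was seen in 444 genes, 38.9% of those that rose, while 143 genes, 14.8% of those that fell, fell by over 2-fold. Rises of over 4-fold, 8-fold and 16-fold were seen in 64, 17 and 5 genes. Falls of over 4-fold were seen in 8 genes, and a fall of over 8-fold in 0.

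The separation of the groups can also be read without a test, from CPM that carry the scaling described below. In 1523 genes, or 13% of those tested, every MCT sum lay on the same side of every saline sum, with 745 genes higher (6.37%) and 778 lower (6.65%) after MCT. Among the called genes, overlap was missing in 651 of 1140 rising genes (57.1%) and in 668 of 963 falling genes (69.4%). MCT sum 3 was the one that most often overlapped the saline sums. It lay above all saline sums in 765 of the 1140 genes that rose (67.1%), whereas MCT sums 1, 2, 4 and 5 did so in 1107, 1117, 1057 and 1096. For the genes that fell it lay below all saline sums in 772 of 963 (80.2%), and the other 4 did so in 890 to 947. These counts describe the called genes and do not test them, since the same sums chose them.

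**Figure D2:**
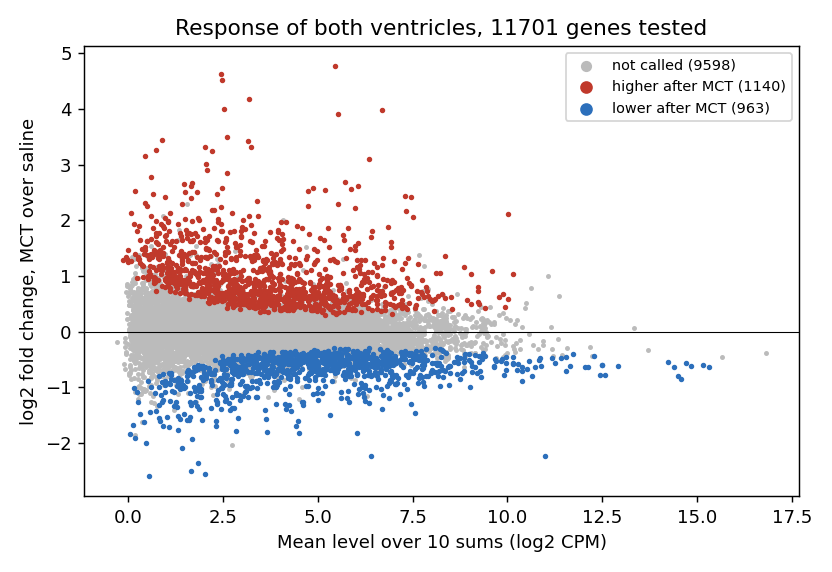
Log2 fold change of MCT over saline (vertical) against the mean level over the 10 sums in log2 CPM (horizontal), 1 point per tested gene, with 1140 genes called higher in red, 963 called lower in blue and the others in grey. The largest rises exceed the largest falls, and of the 22 genes above 12 log2 CPM at the far right 16 are called lower and 0 higher.

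Genes that fell were expressed at higher levels than genes that rose. The median level was 4.92 log2 CPM among genes that fell and 3.47 among genes that rose, beside 3.60 over all genes tested. The tested genes were split by level into 4 classes of equal size. In the class with the lowest levels, 283 rose and 110 fell. The next class up had 329 rises and 169 falls, and the one above it had 266 rises and 234 falls. In the class with the highest levels, above 5.14 log2 CPM, the order was turned, with 262 rises and 450 falls. The share of a class that rose stayed between 8.96% and 11.2%, while the share that fell went from 3.76% in the lowest class to 15.4% in the highest. The median standard error of the fold changes, in log2 units, went from 0.28 in the lowest class to 0.13 in the highest. Small changes could thus be called more easily at high levels. The median log2 fold change of all genes in a class went from 0.097 in the lowest to -0.057 in the highest. Whether either bears on the shares that rose or fell was not tested.

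**Figure D3:**
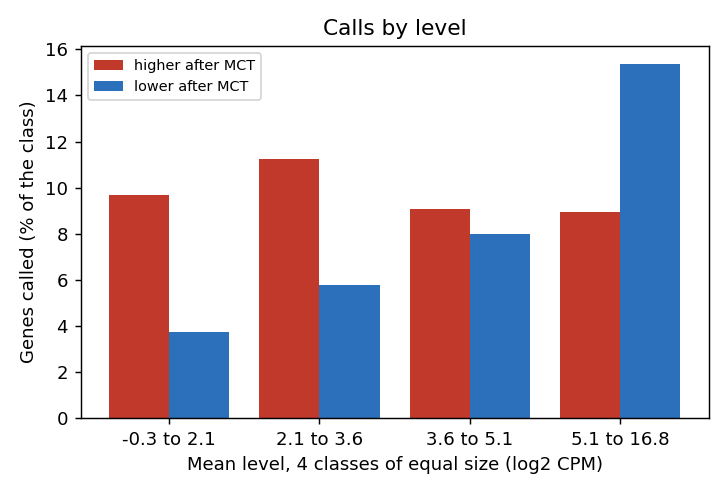
Percent of genes called higher (red) or lower (blue) after MCT, in 4 classes of equal size by mean level in log2 CPM. The red bars lie between 8.96% and 11.2% in all classes, and the blue bars climb from 3.76% to 15.4%.

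The most abundant transcripts lay on the falling side. The 22 genes with a mean above 12 log2 CPM held 45.5% of all counts, and 16 of them fell, 0 rose and the median log2 fold change was -0.61. Of the 10 genes with most counts, which held 37.8% of all counts, 8 fell and 2 were not called, with log2 fold changes from -0.85 to -0.38. The 10 genes with most counts within each sum took 30.8%, 31.1%, 38.9%, 36.0% and 38.1% in MCT sums 1 to 5 and 41.0%, 46.8%, 45.7%, 37.5% and 37.9% in saline sums 1 to 5. These shares averaged 35.0% ± 3.85 (SD, n = 5) and 41.8% ± 4.32, and the ranges overlapped (exact two-sided permutation test, p = 0.048, Benjamini-Hochberg 0.071).

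MCT sums also held counts from more genes. At the lowest total of the 10 sums, 15489, 15352, 15405, 15460 and 15301 genes were expected in MCT sums 1 to 5, and 15109, 14690, 14892, 14744 and 14834 in saline sums 1 to 5. The groups did not overlap. The means were 15401 ± 76.9 (SD, n = 5) and 14854 ± 163 genes (exact two-sided permutation test, p = 0.0079, Benjamini-Hochberg 0.024).

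The balance of rises and falls depended on how sums were put on a common scale. The scaling used here (TMM, which sets the typical gene near 0) gave factors of 1.05 to 1.20 for MCT sums and 0.84 to 0.97 for saline sums. With total counts alone as the scale, the median log2 fold change of all genes was 0.29, a shift of 0.28, and 3263 genes were higher and 303 lower, so that 91.5% of calls were rises in place of 54.2%. All 1140 genes that rose with TMM were also called higher on that scale. Of the 963 genes that fell, 303 were also called lower, the other 660 were below 0 without passing, and 0 were above 0. That rises stayed called and falls stayed below 0 was largely set by the direction and size of the shift. These counts are thus no independent support. On that scale 20 of the 22 most abundant genes were below 0 and 6 of them were called lower. Changes are given below relative to the typical gene.

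The 4 genes printed by ID are those with the largest rises and falls among genes that were called, had a mean of at least 3 log2 CPM and did not overlap between groups, a set of 935 genes. Their values chose them, so they illustrate the size of the response.

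ENSRNOG00000058645 had the largest rise of this set. It was at 6.65, 27.5, 2.29, 19.9 and 26.8 CPM in MCT sums 1 to 5, and at 1.26, 0.316, 0.802, 0.292 and 1.56 CPM in saline sums 1 to 5. MCT sum 3 was only a little above the highest saline sum, and the other MCT sums were well above it. Means were 16.6 ± 11.6 CPM with MCT and 0.846 ± 0.565 CPM with saline (SD, n = 5). The log2 fold change was 4.18 with a standard error (SE) of 0.70 and an adjusted p of 0.0031 in edgeR. The saline level rests on few reads, between 2 and 16 per sum, so its fold change is imprecise. The gene met the level criterion, with a mean of 3.18 log2 CPM over all sums, only through the MCT sums. Within the pairs, the LV library was at 55.4 CPM and the RV library at 7.06 CPM in MCT replicate 5, whereas in MCT replicate 2 the RV library was higher, at 35.8 against 13.1 CPM. In MCT replicate 4 the signal came from the LV library, at 25.0 CPM, since the RV library was at 0.347 CPM, within the saline range.

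ENSRNOG00000012660 rose almost as much from a better measured level. It was at 261, 245, 41.4, 154 and 268 CPM in MCT sums 1 to 5, and at 19.1, 6.33, 10.7, 13.9 and 9.97 CPM in saline sums 1 to 5. MCT sum 3 was again the lowest MCT sum and still above every saline sum. Means were 194 ± 96.8 CPM with MCT and 12.002 ± 4.80 CPM with saline (SD, n = 5), and the log2 fold change was 3.99 with an SE of 0.47 and an adjusted p of 0.00083 in edgeR. The RV libraries of MCT replicates 1 to 5 were at 461, 340, 48.2, 11.1 and 119 CPM, and the LV libraries at 175, 86.4, 16.4, 192 and 481 CPM. The RV library of replicate 4 lay among the saline RV libraries, at 4.72 to 27.4 CPM, and all LV libraries lay above the saline LV libraries, at 5.79 to 8.06 CPM.

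ENSRNOG00000025757 had the largest fall of this set, from a high level. It was at 50.7, 228, 1593, 1391 and 305 CPM in MCT sums 1 to 5, and at 3442, 4036, 3012, 3591 and 2757 CPM in saline sums 1 to 5. MCT sums thus spanned a wide range below a narrow saline range, with sums 3 and 4 nearest to saline. Means were 714 ± 720 CPM with MCT and 3368 ± 500.3 CPM with saline (SD, n = 5), and the log2 fold change was -2.24 with an SE of 0.70 and an adjusted p of 0.044 in edgeR. Both chambers of MCT replicate 1 were low, at 30.9 CPM in the RV and 55.8 CPM in the LV. In replicate 4 the RV library was at 4733 CPM, above all saline RV libraries, while the LV library was at 357 CPM, and in replicate 3 the LV library was at 3359 CPM, within the saline LV range, while the RV library was at 972 CPM. This call was lost in 16 of 27 alternatives, with an adjusted p of up to 0.45. With equal weight for both chambers its log2 fold change was -1.85 (edgeR adjusted p = 0.12). Without libraries RV MCT 4 and LV MCT 3 it was -3.09 (edgeR adjusted p = 0.0045). Those were the MCT libraries in which this gene was highest, so leaving them out favours a larger fall and a smaller p.

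ENSRNOG00000026548 fell with the same ordering of the MCT sums at its upper end. It was at 10.6, 17.7, 54.3, 42.6 and 18.6 CPM in MCT sums 1 to 5, and at 91.8, 93.8, 106, 107 and 112 CPM in saline sums 1 to 5. The highest MCT sum was well below the lowest saline sum. Means were 28.8 ± 18.7 CPM with MCT and 102 ± 8.89 CPM with saline (SD, n = 5), and the log2 fold change was -1.83 with an SE of 0.36 and an adjusted p of 0.0057 in edgeR. The RV libraries of MCT replicates 1 to 5 were at 0.662, 6.003, 45.7, 106 and 28.1 CPM, and the LV libraries at 13.9, 33.2, 75.5, 22.6 and 3.29 CPM. The RV library of replicate 4 lay among the saline RV libraries, at 93.6 to 121 CPM.

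**Figure D4:**
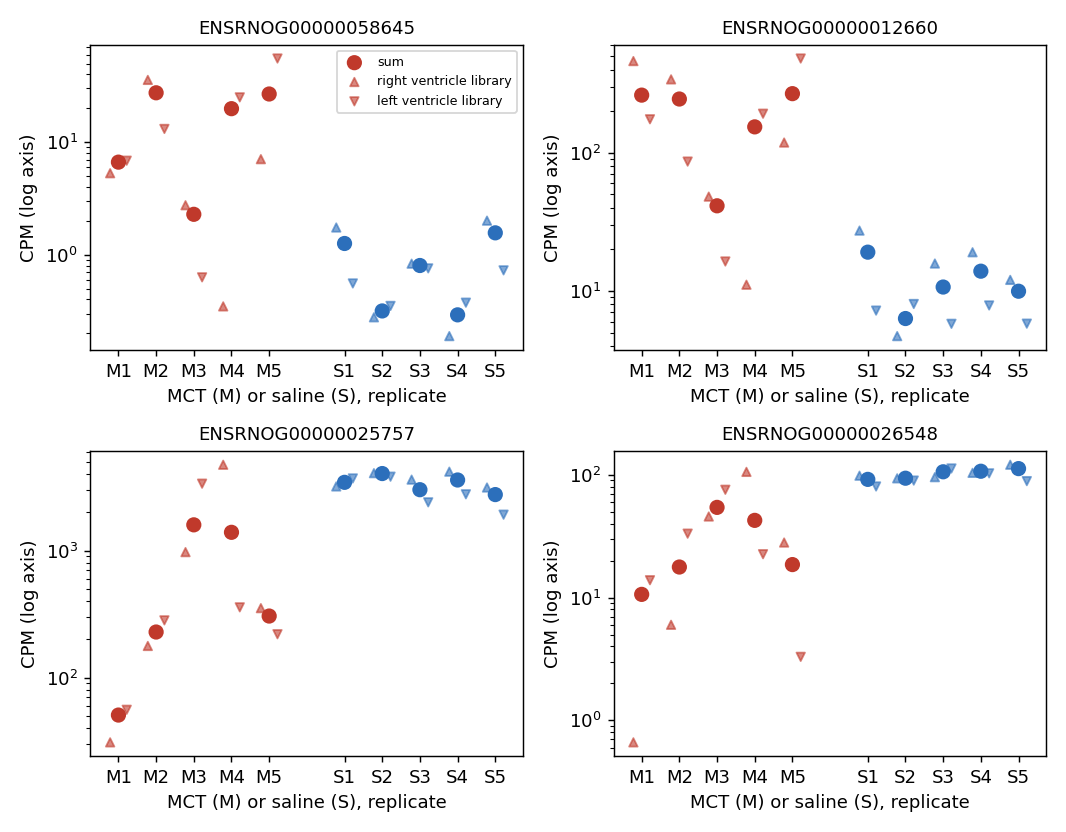
Level of the 4 genes in CPM (vertical, log axis) in MCT sums (M1 to M5, red) and saline sums (S1 to S5, blue), with the sum as a circle, its RV library as an upward triangle and its LV library as a downward triangle. In all 4 panels the circles of both groups do not overlap, M3 is the MCT sum nearest to saline, and the RV triangle of M4 lies within or beyond the saline RV values.

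The called genes were also read in each chamber. In a fit of the 4 groups over all 20 libraries, all 1140 genes that rose had a positive log2 fold change in the RV and in the LV, with medians of 0.77 and 0.93. Of the 963 genes that fell, 960 were negative in both chambers, with medians of -0.53 in the RV and -0.69 in the LV. Over all genes tested the medians were 0.011 and 0.030, and 74.3% had the same sign in both. The libraries are those that make up the sums, so this describes how the calls are composed and is no independent support. A shared sign is thus largely built in, and a call does not show that each chamber changed by itself.

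For ENSRNOG00000058645 the log2 fold change was 3.23 (SE 0.94) in the RV and 5.12 (SE 1.08) in the LV. For ENSRNOG00000012660 it was 3.61 (SE 0.79) and 4.77 (SE 0.86). For ENSRNOG00000025757 it was -1.54 (SE 0.95) and -1.77 (SE 0.96), and for ENSRNOG00000026548 it was -1.49 (SE 0.70) and -1.70 (SE 0.70). In all 4 genes both chambers had the same sign, which their choice by sums without overlap favours. In the RV libraries alone none of them passed (edgeR adjusted p = 0.169, 0.165, 0.448 and 0.356, in the order above). In the LV libraries alone ENSRNOG00000012660 passed (edgeR adjusted p = 0.0061). There ENSRNOG00000025757 (0.208) and ENSRNOG00000026548 (0.063) did not, and ENSRNOG00000058645 was not tested. The chamber difference was not tested.

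The sums were measured more precisely than either chamber alone. Over the 9912 genes tested in all fits compared, the median standard error in log2 units was 0.16 for the sums, 0.23 for the RV libraries alone and 0.23 for the LV libraries alone. The median size of a log2 fold change in the same genes was 0.23, 0.22 and 0.27. The edgeR test called 0 of 10407 genes in the RV libraries alone (0%, smallest adjusted p = 0.16, 1577 genes at an unadjusted p under 0.05) and 827 of 9980 in the LV libraries alone (8.29%). To set depth aside, every library was thinned to 50% of its counts before adding, which gave sums of 3697520 to 6737822 counts, where single libraries held 3272420 to 9227104. The thinned sums gave 1632 of 10530 genes (15.5%) and a median standard error of 0.18 over the same 9912 genes. These comparisons share their libraries and are given side by side only.

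How far each sum took part in the response was measured with genes called without it. Each sum was left out and genes were called from the other 9. The left-out sum was then read at those genes as its median difference from the saline sums in the call. The calls used a filter and scale factors from those 9 sums, and kept only genes that also passed the filter over all sums. The values read were scaled with factors that came from all sums or all libraries. The saline sums in the call helped to choose the genes, which can shift a left-out saline sum toward the MCT side. Left-out MCT sums 1 to 5 lay 1.07, 1.12, 0.33, 0.75 and 1.002 log2 units above saline at the 769 to 1448 genes called higher. Left-out saline sums 1 to 5 lay 0.17, 0.021, 0.018, 0.099 and 0.096 above the other saline sums. All left-out MCT sums were thus above all left-out saline sums, with sum 3 lowest.

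At the genes called lower, left-out MCT sums 1 to 5 were at -0.88, -0.66, -0.37, -0.53 and -0.60, and left-out saline sums 1 to 5 at -0.15, -0.12, -0.049, 0.027 and -0.0033. The groups again did not overlap. Counted gene by gene, left-out MCT sums 1, 2, 4 and 5 lay on the MCT side of the midpoint between the group means in 86.3% to 95.4% of genes called higher, and sum 3 did so in 39.6%. Left-out saline sums did so in 10.2% to 25.9%. At genes called lower the share was 81.7% to 97.0% in MCT sums 1, 2, 4 and 5, 53.9% in sum 3 and 7.05% to 22.5% in saline sums. MCT sum 3 thus lay between the other MCT sums and the saline sums in both sets of genes.

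The chambers of a left-out sum were read apart as well. At the genes called higher, the RV libraries of MCT replicates 1 to 5 lay 1.21, 1.18, 0.37, -0.027 and 0.63 log2 units from the saline RV libraries, and the LV libraries 0.99, 0.93, 0.13, 0.92 and 1.39 from the saline LV libraries. The RV library of replicate 4 was at the saline level, while its LV partner was close to the LV library of replicate 2. In replicate 5 both chambers were above saline, with the RV library lower than the LV library. In replicate 3 both chambers were low, with the LV library at 0.13, where saline LV libraries reached 0.13 as well. At the genes called lower, this LV library was at -0.23, somewhat below the lowest saline LV library at -0.19. The RV library of replicate 4 was at -0.13 there, and the lowest saline RV library at -0.14. The 2 libraries RV MCT 4 and LV MCT 3 were also those with the lower total of their pair, and they held 29.7% and 33.8% of the counts of their sums, so adding raw counts gave them less weight than their partners.

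With each pair thinned to equal weight of its chambers, 1695 of 11245 genes were called, 915 higher and 780 lower. With RV MCT 4 and LV MCT 3 left out, so that the other library stood for the pair, 2548 of 11525 genes were called (22.1%), 1377 higher and 1171 lower. This second fit drops libraries that had looked least affected, which favours calls.

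**Figure D5:**
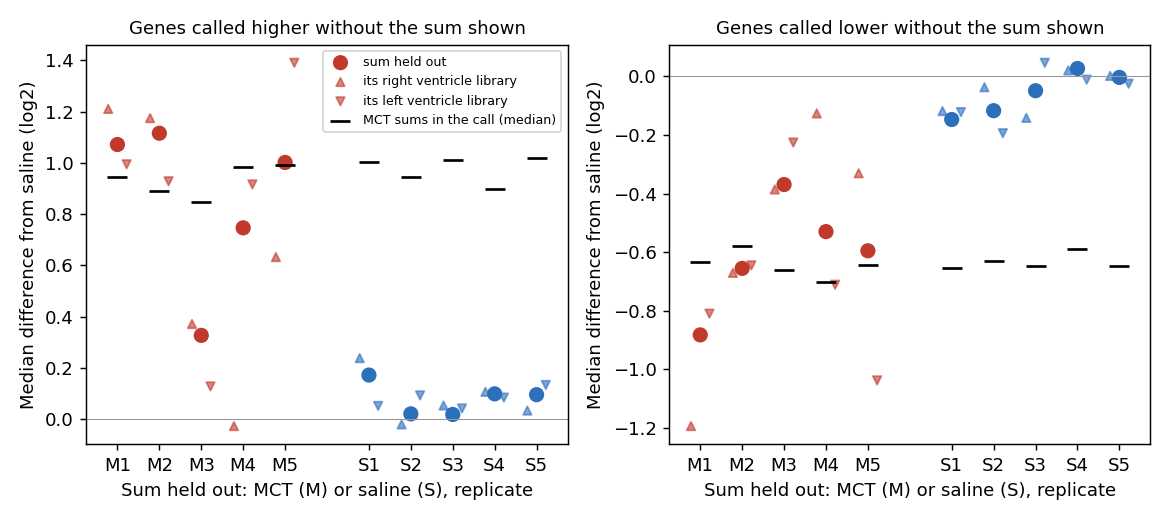
Median log2 difference from saline (vertical) of each left-out sum (circle), its RV library (upward triangle) and its LV library (downward triangle) at genes called higher (left) or lower (right) from the other 9 sums, with the black bar giving the median of the MCT sums in that call. MCT sum 3 reaches 0.33 and -0.37, short of the other MCT sums, the RV library of MCT 4 lies near 0 on the left, and saline sums lie between -0.15 and 0.17.

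The codes of the libraries read as dates in May or June for 3 sums of each group and in November for 2, and both sets were fitted apart. They share no library. The 2 November saline codes hold the same date and differ only by a suffix. The labels leave unsaid whether these 2 are different animals. The May and June sums gave 214 of 11828 genes (1.81%), 142 higher and 72 lower, and the November sums gave 782 of 11857 genes (6.6%), 446 higher and 336 lower (edgeR, adjusted p under 0.05). MCT sum 3 is among the May and June sums. At an unadjusted p under 0.05 the counts were alike, 2915 and 2994 genes.

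Genes called in 1 season were then read in the other, over the 11611 genes tested in both. Of 424 genes called higher in November, 391 (92.2%) were higher in May and June, where 51.9% of all genes were, and 311 (73.3%) were so at an unadjusted p under 0.05, where 13.8% of all genes were. Their median log2 fold change was 1.40 in November and 1.07 in May and June. Of 334 genes called lower in November, 322 (96.4%) were lower in May and June, where 48.1% of all genes were, and 220 (65.9%) were so at an unadjusted p under 0.05, where 11% of all genes were. Their median log2 fold change was -0.94 in November and -0.65 in May and June.

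In the other direction, 137 of 141 genes called higher in May and June (97.2%) were higher in November, where 51.1% of all genes were. Of 72 called lower, 64 (88.9%) were lower there, where 48.9% of all genes were. Their medians went from 1.36 to 0.97 and from -0.97 to -0.69. Genes called in the same direction in both seasons numbered 71 higher and 28 lower. Those 71 were 16.7% of the November list and 50.4% of the May and June list. Those 28 were 8.38% and 38.9%. In all 4 lists the median change was smaller in the season that had not chosen the genes.

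The direction of the 4 genes printed by ID in each season was fixed by their choice, since their groups do not overlap, and only the sizes and calls are given. ENSRNOG00000058645 had a log2 fold change of 3.78 in May and June (edgeR adjusted p = 0.099) and 4.63 in November (edgeR adjusted p = 0.0034). ENSRNOG00000012660 had 3.88 (edgeR adjusted p = 0.066) and 4.14 (edgeR adjusted p = 0.0012). ENSRNOG00000025757 had -2.49 (edgeR adjusted p = 0.25) and -1.91 (edgeR adjusted p = 0.15), so it passed in neither season. ENSRNOG00000026548 had -1.82 (edgeR adjusted p = 0.11) and -1.83 (edgeR adjusted p = 0.027). With the season as a term in the fit of all 10 sums, 2010 of 11701 genes were called.

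A part of the response did not depend on any single sum. Of the 2103 called genes, 1219 (58.0%) were called in the same direction in each of the 10 fits that left out 1 sum, 674 of those that rose and 545 of those that fell. Their median log2 fold changes were 1.06 and -0.70. When the 9 other fits of the same 10 sums or 20 libraries that had been planned were required as well, 1076 genes (51.2%) remained, 576 higher and 500 lower. Fits of 1 season or 1 chamber, and the fits added later, were not among these 19.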

How the data were processed

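Libraries that read the 3' ends of transcripts (QuantSeq FWD, 150 bp read pairs, 2 runs, per the labels' protocols) were counted by the authors. The deposited values are raw read counts per Ensembl gene. The submitters' processing notes name STAR 2.7.10a, HTSeq 0.11.3 and, as builds, rn6 and mRatBN7.2. How strand was set, which annotation served and how runs were joined is not given in the sources used here, so overlapping genes and near-identical copies may share counts.

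RV and LV counts of a code were added. Sums were fitted with edgeR 4.0.16 (R 4.3.3): TMM, filterByExpr, robust quasi-likelihood test, Benjamini-Hochberg threshold 0.05. CPM use TMM factors, and log2 CPM a prior count of 2. The standard error was derived from the F statistic. Tested genes held 99.8% to 99.9% of counts. Genes at the lowest total were computed by rarefaction (vegan 2.7.1). No sums of a group agreed within sampling noise: chi-square per degree of freedom was at least 10.98.

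On simulated counts for 11701 genes, 200 of them changed, the fit recovered 68% of 2-fold and 90% of 4-fold changes, with 8 false calls. With no change it made 0. The simulation gave each gene the same spread in both groups and as many rises as falls. A wider spread of MCT sums and changes in many abundant genes were not simulated, so these rates need not hold for the real sums.

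Comparison, gene lists and rules were chosen with earlier results of these data known. Genes printed are the 2 largest rises and 2 largest falls among called genes with at least 3 log2 CPM and no overlap. Since no symbol could be matched, 21 pathway lists, 17 marker lists and the shares of mitochondrial and ribosomal genes could not be used. Readings of left-out sums and across seasons were chosen after seeing the data. Alternatives used RLE, other filters, DESeq2 1.42.0, limma 3.58.1 voom with quality weights, equal chamber weights and all 20 libraries (voom without quality weights). Others used season, a replicate block, 1 season, 1 chamber, and leaving out each sum.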

Additional observations from a re-analysis of the deposited data

How the results depend on the processing

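The number of genes called, 2103, ranged from 1408 to 2621 when 1 sum was left out. It was 3566 with total counts alone as the scale, 214 within May and June, 782 within November, 0 with RV libraries alone and 827 with LV libraries alone; the last 4 use fewer libraries. In number of genes called, though not in share of genes tested, every other alternative stayed within 1.5 times, from 1625 to 2880 genes. Among them were RLE (2135), DESeq2 (2443) and limma voom with quality weights for the sums (2880). No filter on low counts gave 1965 of 19211 genes tested, beside 2103 of 11701 with the filter. All 20 libraries with the code as a block gave 2038, and a scale without the 10 top genes gave 2115. The share of rises was 54.2%, and 47.8% with all 20 libraries, 66.4% within May and June and 91.5% with total counts. The replicate block, which joins the MCT and saline sum of 1 number, gave 1625 genes; deviations of same-numbered sums had correlations of -0.22 to 0.12, and 0 of 5 MCT sums correlated best with their own number, so the numbers were not taken as pairs. The difference on the first principal component, 52.1, ranged from 49.2 to 59.4 without 1 sum, was 52.0 with RLE and 62.1 over all genes with a count, and passed in each of these. Of 107 fits of the 4 printed genes under an alternative 23 lost the call, 16 of them for ENSRNOG00000025757, including the fits without MCT sum 2 or 5 or any saline sum (adjusted p = 0.063 to 0.11). Leaving out the libraries that stood apart, thinning to 50%, dropping the 10 top genes and total-count scaling were chosen after seeing the data. The gene lists could not be tested under any setting. In the LV libraries alone ENSRNOG00000058645 did not pass the filter on low counts: LV MCT 3 held 2 reads of it and LV saline libraries 1 to 3. Its saline level rests on few reads.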
